A study of Mus musculus with 4 samples.

Results

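The 8 genes Dbp, Tef, Hlf, Nfil3, Bhlhe40, Bhlhe41, Crem and Creb1 encode output and input transcription factors of the circadian clock. They were taken by symbol from a liver expression table of 15500 genes, and each symbol was listed once. The table holds 4 libraries of male Kunming mice, with 1 library per group. All groups ate chow with a 1.5% (w/w) fatty acid supplement for 28 days. The supplement was linoleic acid in Vehicle and GW6471, and conjugated linoleic acid (CLA), an isomer mixture found in meat and dairy fat, in CLA and CLA+GW6471. The groups GW6471 and CLA+GW6471 also received daily intraperitoneal injections of GW6471, an antagonist of the lipid-sensing nuclear receptor PPARα, at 20 mg/kg. The mice were 5 weeks old when bought, and the labels give 6 mice per group. The methods place sampling of the diet groups at zeitgeber time 8, that is 8 h after lights on, and do not describe the GW6471 groups. The sources used here do not say whether a library holds 1 mouse or several. With 1 library per group there is no replicate error, so no difference below has a test, and each describes these libraries only.

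DBP, TEF and HLF are the PAR-bZIP factors, which bind D-box elements as dimers and activate genes of detoxification and lipid metabolism in liver. NFIL3 (E4BP4) binds the same D-boxes and represses them. BHLHE40 (DEC1) and BHLHE41 (DEC2) are repressors that compete with the CLOCK-BMAL1 heterodimer at E-boxes, the elements through which the clock drives Dbp. CREB1 and CREM bind cAMP response elements (CREs). CREB1 carries feeding, fasting and hormone signals to the clock, and CREM products include the repressor ICER. In mouse liver Dbp transcripts rise and decline sharply over the day, so a level at a single time of day depends on phase as well as on amplitude.

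The E-box CACGTG was searched around the 5′ ends of 6 of the factor genes, because the clock drives Dbp through E-boxes and the DEC repressors act there. Promoters (250 bases before to 50 after the gene's start, RefSeq, GRCm38.p6) were held for 6 of the 8 genes. Bhlhe40 and Crem had no entry, and no sequence of these genes was searched here. The Dbp promoter, at chr7:45704997-45705296 on the plus strand, is shown because Dbp had the widest range of levels on the log2 scale used below.
Dbp promoter: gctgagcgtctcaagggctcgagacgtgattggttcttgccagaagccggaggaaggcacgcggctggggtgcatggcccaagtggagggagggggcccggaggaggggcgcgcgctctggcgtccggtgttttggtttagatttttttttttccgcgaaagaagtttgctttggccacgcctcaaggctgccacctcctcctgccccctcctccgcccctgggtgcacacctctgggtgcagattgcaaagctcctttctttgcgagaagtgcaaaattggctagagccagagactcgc
On either strand this window held no E-box CACGTG, no D-box (TTATGTAA or TTACGTAA), no CRE (TGACGTCA), no CRE core (CGTCA) and no nuclear receptor element (AGGTCA). Of 32851 mouse promoters of this length, 7.15% held the E-box, 1.06% the D-box, 1.79% the CRE, 20.8% the CRE core (which lies within the CRE) and 16.3% AGGTCA. The E-box was found in both Tef promoters and in that of Bhlhe41, the CRE in that of Hlf, and AGGTCA in that of Nfil3. The CRE core occurred at 2 places in the Hlf promoter, both within its CRE, and at 1 in the Nfil3 promoter. The Creb1 promoter held none of them. The E-box, CRE and AGGTCA matches read 5′ to 3′ on the gene's strand, with the motif in capitals.
Tef first promoter, E-box, chr15:81802534-81802563: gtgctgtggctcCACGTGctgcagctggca
Tef second promoter, E-box, chr15:81811264-81811293: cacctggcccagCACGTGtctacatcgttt
Bhlhe41 promoter, E-box, chr6:145865556-145865585, minus strand: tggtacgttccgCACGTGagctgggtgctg
Hlf promoter, CRE, chr11:90390907-90390938, minus strand: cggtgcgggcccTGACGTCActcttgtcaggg
Nfil3 promoter, AGGTCA on the opposite strand, chr13:52981034-52981063, minus strand: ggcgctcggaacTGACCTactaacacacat

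Farther from the start, 2 E-boxes lay in the Dbp gene, which spans chr7:52960458-52965525 on the plus strand of mm9, the assembly to which the authors mapped. Both lay in intron 2, at 2624 and 2737 bp downstream of the 5′ end. They are shown with 12 flanking bases, and the E-box in capitals.
Dbp intron 2, chr7:52963070-52963099: acattccctcgcCACGTGagtccgccttcc
Dbp intron 2, chr7:52963183-52963212: agctgtaggccaCACGTGatgcggccctga
In the window from 2000 bp before to 5000 bp after the 5′ end, at least 2 E-boxes were found for 24.9% of 22235 coding genes. Tef and Nfil3 also had 2 in this window, Hlf and Creb1 had 1, and Bhlhe41 had 3, a number reached by 8.78% of genes. These counts include the E-boxes of the first Tef promoter and of the Bhlhe41 promoter shown above. The median was 1. An E-box match is a description of the sequence, and binding was not measured here.

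**Figure D1:**
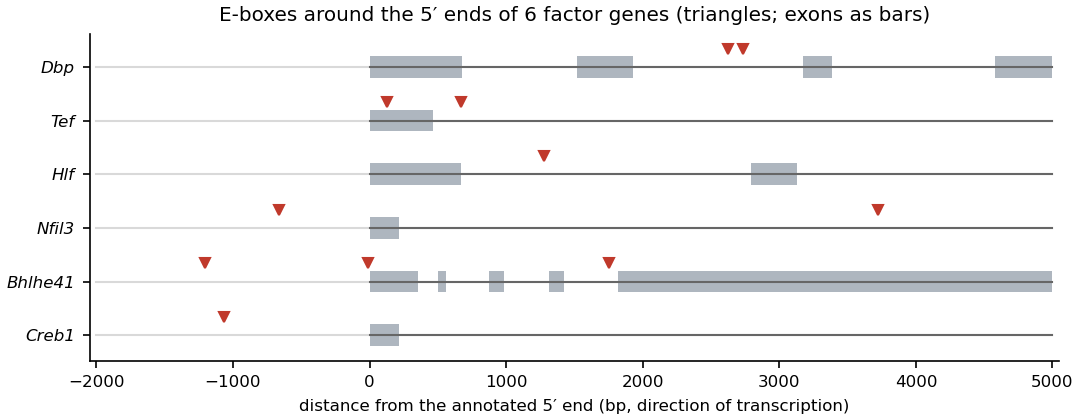
Positions of CACGTG (triangles) from 2000 bp before to 5000 bp after the GENCODE vM1 5′ end (mm9) of 6 factor genes, in bp along the direction of transcription, with exons of the longest coding transcript as bars. Dbp has 2 E-boxes, both in intron 2, and Bhlhe41 has 3.

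The libraries were close in depth, with an estimated 18760000 to 19260000 reads, and the median log2 ratio over all genes was within 0.01 of 0 in each comparison. The liver label was checked against 10 hepatocyte markers, of which 6 had a mean FPKM under 1. Alb, Trf, Fgb and Hnf4a were clearly present, whereas Ttr and Apoh were at or below 0.04 FPKM, Cyp2e1 at or below 0.10 and Fga at or below 0.11 in every library. Levels this low for abundant liver transcripts go against the label, so the libraries are called liver here by their label only. Ppara, which encodes the receptor that GW6471 blocks, was also low, at 0.15, 0.11, 0.06 and 0.07 FPKM in Vehicle, CLA, GW6471 and CLA+GW6471. The summed level of the 10 markers was 1002 FPKM in Vehicle, 1861 in CLA, 1519 under GW6471 and 929 under CLA+GW6471. Markers of blood (1 of 2 listed) and endothelium (3 of 3 listed) summed to at most 2.02 and 0.94 FPKM. Macrophage markers (3 of 5 listed) summed to 23.8 to 36.1 FPKM, highest in CLA and almost all from Cd68. Stellate and fibroblast markers (5 of 5 listed) summed to 1148 to 1506 FPKM, nearly all from Dcn, while Col3a1, Lum and Pdgfrb were at or below 0.05. Epithelial markers (9 of 9 listed) summed to 1652 to 1939 FPKM, mainly Krt18 and Krt8, while Krt19, Cdh1 and Krt14 were at or below 0.28. Sox9 was lowest in CLA, at 54.74 FPKM in Vehicle, 34.72 in CLA, 48.67 under GW6471 and 57.05 under CLA+GW6471. Epcam and Krt5 were highest in CLA. The part of cell composition in the differences below was not tested. In such bulk RNA, fewer cells of a type and less RNA per cell cannot be told apart.

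Dbp, the PAR-bZIP factor with the strongest known rhythm, had the widest range of the 8 genes in log2 of FPKM + 0.1. Its level was 0.77 FPKM in Vehicle, 3.18 in CLA, 1.87 under GW6471 and 0.82 under CLA+GW6471. FPKM scales the reads of a gene to its transcript length and to the library size. The 95% counting intervals were 0.506 to 1.14, 2.61 to 3.85, 1.44 to 2.39 and 0.540 to 1.17 in the same order. The lowest libraries, Vehicle and CLA+GW6471, overlapped, GW6471 stood above both, and CLA stood above GW6471. Ratios were taken on FPKM + 0.1, which makes the differences of weakly expressed genes look smaller. The intervals of ratios were taken from estimated reads without the 0.1, and all intervals cover counting error only. The log2 ratio of CLA to Vehicle was 1.91 (1.41 to 2.72), from about 107 against 26 estimated reads. Among the 10355 genes that averaged 1 FPKM or more, only 12, Dbp included, had a ratio as high. The log2 ratio was 1.18 (0.60 to 1.99) for GW6471 against Vehicle, where 34 genes were as high. It was -1.83 (-2.63 to -1.36) for CLA+GW6471 against CLA and -1.10 (-1.90 to -0.54) for CLA+GW6471 against GW6471, the last with an interval that includes 1.5-fold. In Vehicle and CLA+GW6471 Dbp was below 1 FPKM, so it passed the limit on mean FPKM through the CLA and GW6471 libraries. With 1 added in place of 0.1, the log2 ratios of Dbp were smaller, at 1.24 for CLA against Vehicle, 0.70 for GW6471 against Vehicle, -1.20 for CLA+GW6471 against CLA and -0.66 for CLA+GW6471 against GW6471.

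Part of the Dbp transcript overlaps another gene. In the GENCODE vM1 annotation, 491 exon bases of Dbp, or 27.4% of the length of its longest coding transcript, lie in exons of Sphk2 on the opposite strand. Sphk2, which encodes a sphingosine kinase, had 16.36 FPKM in Vehicle, 10.95 in CLA, 12.81 under GW6471 and 16.86 under CLA+GW6471. Thus Sphk2 was lowest in the library where Dbp was highest, with a log2 ratio of CLA to Vehicle of -0.57. The sources used here do not say whether the reads kept their strand, and without strand the reads in the shared bases cannot be told apart. The part of Sphk2 reads in the Dbp levels was not tested.

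Tef, the PAR-bZIP factor with a shallower known rhythm, differed little. It had 7.66 FPKM in Vehicle, 9.01 in CLA, 8.20 under GW6471 and 7.74 under CLA+GW6471. The order of the 4 libraries equalled that of Dbp, but the highest level was only 1.18 times the lowest, and 73.4% of genes had as wide a span. CLA, the highest, lay above Vehicle, the lowest, beyond the counting interval, with a log2 ratio of 0.23 (0.08 to 0.39). All neighbours in this order overlapped in their intervals. The ratio of CLA+GW6471 to CLA was -0.22 (-0.37 to -0.07) on the log2 scale. GW6471 against Vehicle, at 0.10 (-0.06 to 0.26), and CLA+GW6471 against GW6471, at -0.08 (-0.24 to 0.07), lay within counting error.

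Hlf, the PAR-bZIP factor known from liver, brain and blood stem cells, was near the detection limit. It was listed at 0.01 FPKM in Vehicle, 0.02 in CLA, 0.04 under GW6471 and 0 under CLA+GW6471, which stand for about 1, 2, 4 and 0 reads. A count of 0 in CLA+GW6471 allows a level of up to 0.027 FPKM by the limit of 3 reads, while the Poisson interval used for the other levels ends at 0.033 FPKM. No difference of Hlf was detectable at this depth, and no fold is given.

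Nfil3, the D-box repressor, was the highest of the D-box factors in each library. It had 11.76 FPKM in Vehicle, 11.30 in CLA, 13.90 under GW6471 and 12.61 under CLA+GW6471. Only GW6471 lay above Vehicle beyond the counting interval, with a log2 ratio of 0.24 (0.06 to 0.43). For CLA against Vehicle it was -0.06 (-0.25 to 0.14), for CLA+GW6471 against CLA 0.16 (-0.03 to 0.35) and for CLA+GW6471 against GW6471 -0.14 (-0.32 to 0.04). The summed FPKM of the activators Dbp, Tef and Hlf was 0.718 times that of the repressor Nfil3 in Vehicle, 1.08 times in CLA, 0.727 times under GW6471 and 0.679 times under CLA+GW6471. The activator sum exceeded the repressor in the CLA library alone, where its 12.21 FPKM lay within the counting interval of Nfil3 (10.3 to 12.4). Dbp made up 9.12% of the activator sum in Vehicle, 26.0% in CLA, 18.5% under GW6471 and 9.58% under CLA+GW6471.

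**Figure D2:**
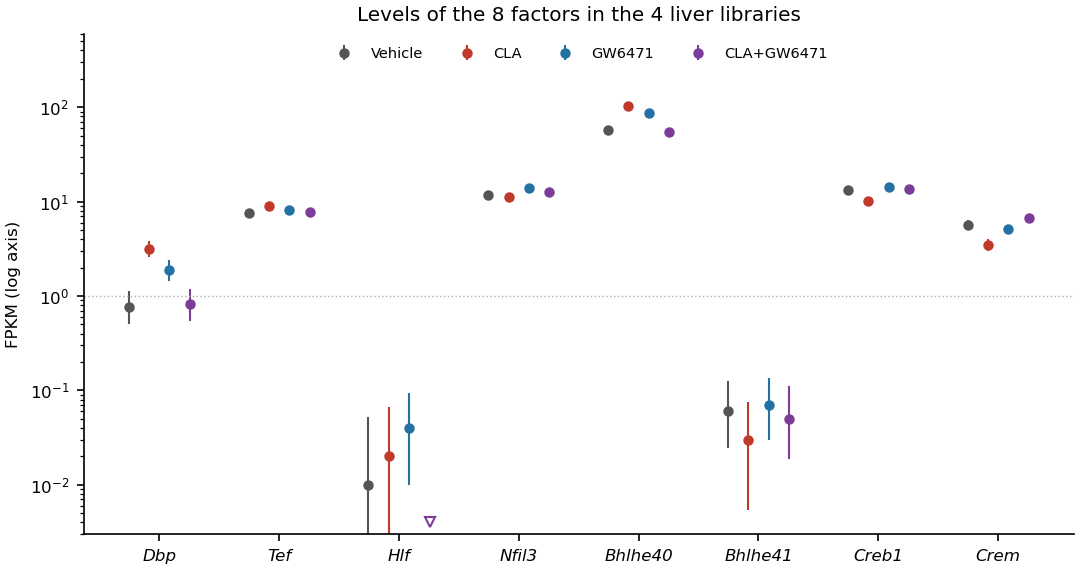
FPKM (log axis) of the 8 factors in the Vehicle, CLA, GW6471 and CLA+GW6471 libraries, 1 point per library, with 95% Poisson counting intervals from estimated reads as bars and an open triangle for a listed 0. Dbp and Bhlhe40 are highest in CLA and next highest in GW6471, Crem is lowest in CLA, and Hlf and Bhlhe41 stay below 0.1 FPKM.

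Bhlhe40, which encodes the repressor DEC1 and is known to respond to hypoxia, light and feeding signals as well as to the clock, was the most abundant of the 8 genes. It had 57.05 FPKM in Vehicle, 103.46 in CLA, 87.07 under GW6471 and 54.11 under CLA+GW6471. As for Dbp, the high libraries were CLA and GW6471. Their intervals (101 to 106 and 84.7 to 89.5 FPKM) did not overlap each other or those of Vehicle (55.1 to 59.0) and CLA+GW6471 (52.3 to 56.0). The last 2 overlapped. For GW6471 against Vehicle the log2 ratio was 0.61 (0.55 to 0.67), a fold of 1.53 whose interval includes 1.5-fold. It was -0.93 (-0.997 to -0.873) for CLA+GW6471 against CLA and -0.69 (-0.75 to -0.62) for CLA+GW6471 against GW6471. In CLA against Vehicle, with a log2 ratio of 0.86, 2.89% of genes had a ratio as high. The summed hepatocyte markers were also highest in CLA and next highest in GW6471, a sum carried mostly by Alb, at 679.53 FPKM in Vehicle, 1321.55 in CLA, 1067.32 under GW6471 and 620.17 under CLA+GW6471. Trf and Fgb had the same high libraries. Hnf4a, at 54.53, 47.31, 47.23 and 51.84 FPKM, was lowest in GW6471 and CLA, and Tat, at 0.89, 0.46, 1.04 and 0.87, was lowest in CLA. Their part in the levels of Dbp and Bhlhe40 was not tested.

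Bhlhe41, the DEC2 gene, was almost silent. It was listed at 0.06 FPKM in Vehicle, 0.03 in CLA, 0.07 under GW6471 and 0.05 under CLA+GW6471, or about 7, 3, 8 and 6 estimated reads. All 4 counting intervals overlapped, and no difference was detectable at this depth. The DEC repressor transcripts in these libraries thus came almost entirely from Bhlhe40.

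Crem had 5.65 FPKM in Vehicle, 3.46 in CLA, 5.07 under GW6471 and 6.65 under CLA+GW6471. The CLA library stood below the others, Vehicle overlapped with its neighbours GW6471 and CLA+GW6471, and CLA+GW6471 stood above GW6471. The log2 ratio was 0.92 (0.69 to 1.20) for CLA+GW6471 against CLA and 0.38 (0.16 to 0.62) for CLA+GW6471 against GW6471. For GW6471 against Vehicle it was -0.15 (-0.39 to 0.08), within counting error. For CLA against Vehicle the log2 ratio of -0.69 (-0.98 to -0.45) corresponded to 1.62-fold, and its interval included 1.5-fold. The table gives 1 value per gene, so the activator isoforms of Crem and its repressor ICER, which starts from an internal promoter, could not be separated.

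Creb1, the cAMP-responsive activator, was lowest in the CLA library, as was Crem. It had 13.31 FPKM in Vehicle, 10.14 in CLA, 14.13 under GW6471 and 13.52 under CLA+GW6471. CLA stood below the other libraries, which overlapped one another. The log2 ratio of CLA to Vehicle was -0.39 (-0.49 to -0.30), less than 1.5-fold, and that of CLA+GW6471 to CLA was 0.41 (0.32 to 0.51). GW6471 against Vehicle, at 0.09, had an interval whose lower end lay at 0 (0.00 to 0.17), and CLA+GW6471 against GW6471 was -0.06 (-0.15 to 0.02). The level of Creb1 was 2.36 times that of Crem in Vehicle, 2.93 times in CLA, 2.79 times under GW6471 and 2.03 times under CLA+GW6471. Crem and Bhlhe41 are among the key clock genes that the study singled out under CLA, so their direction in CLA against Vehicle is not independent evidence.

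**Figure D3:**
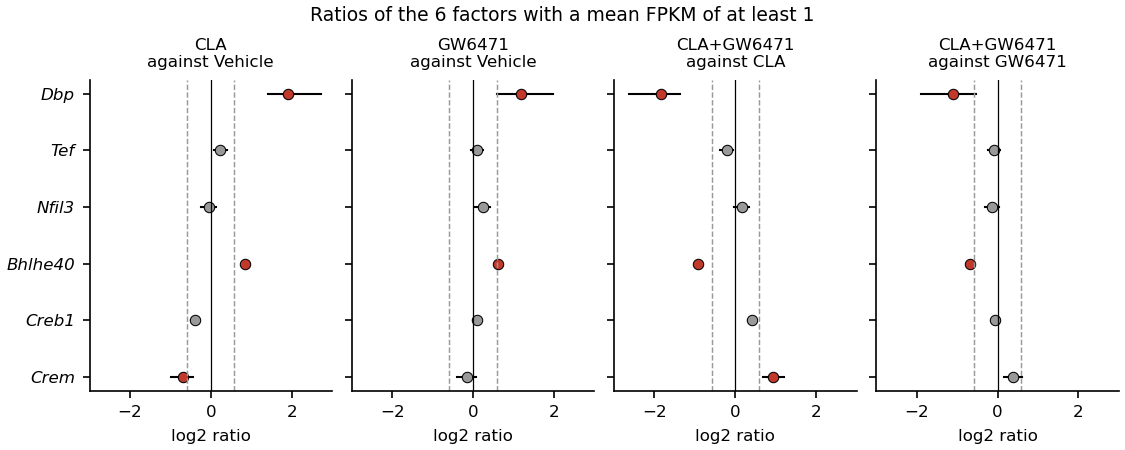
Log2 ratio of FPKM + 0.1 for 6 factors in the 4 comparisons, with dashed lines at 1.5-fold. Bars are 95% counting intervals of the ratio without the 0.1. Red points lie past 1.5-fold: Dbp and Bhlhe40 in each comparison, and Crem in CLA against Vehicle and CLA+GW6471 against CLA.

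Of the 8 factors, 6 averaged 1 FPKM or more, and those that differed by 1.5-fold or more were counted. In CLA against Vehicle, Dbp and Bhlhe40 were higher and Crem was lower, while 7.33% of all genes were as much higher and 4.95% as much lower. In GW6471 against Vehicle, Dbp and Bhlhe40 were higher and 0 factors were lower, against 3.29% and 2.1% of all genes. In CLA+GW6471 against CLA, Crem was higher, with 6.84% of all genes, and Dbp and Bhlhe40 were lower, with 9.16%. In CLA+GW6471 against GW6471, 0 factors were higher, with 2.81% of all genes, and Dbp and Bhlhe40 were lower, with 3.88%. The comparisons share libraries, so the Dbp and Bhlhe40 values are not separate observations of one effect. Ratios beyond the counting interval were found for 5, 4, 5 and 3 of the 6 factors, in the same order of comparisons. Among all 9762 such genes with a known length the shares were 65.5%, 54.9%, 68.7% and 59.2%, so lying beyond counting error was the common case and singled out no factor. The median size of the log2 ratio, whatever its sign, was 0.54 over the 6 factors in CLA against Vehicle, where it was 0.23 over all genes. For GW6471 against Vehicle these medians were 0.20 and 0.16. They were 0.67 and 0.25 for CLA+GW6471 against CLA, and 0.26 and 0.19 for CLA+GW6471 against GW6471. The 6 factors include Dbp, which passed the limit on mean FPKM through the libraries where it was high.

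**Figure D4:**
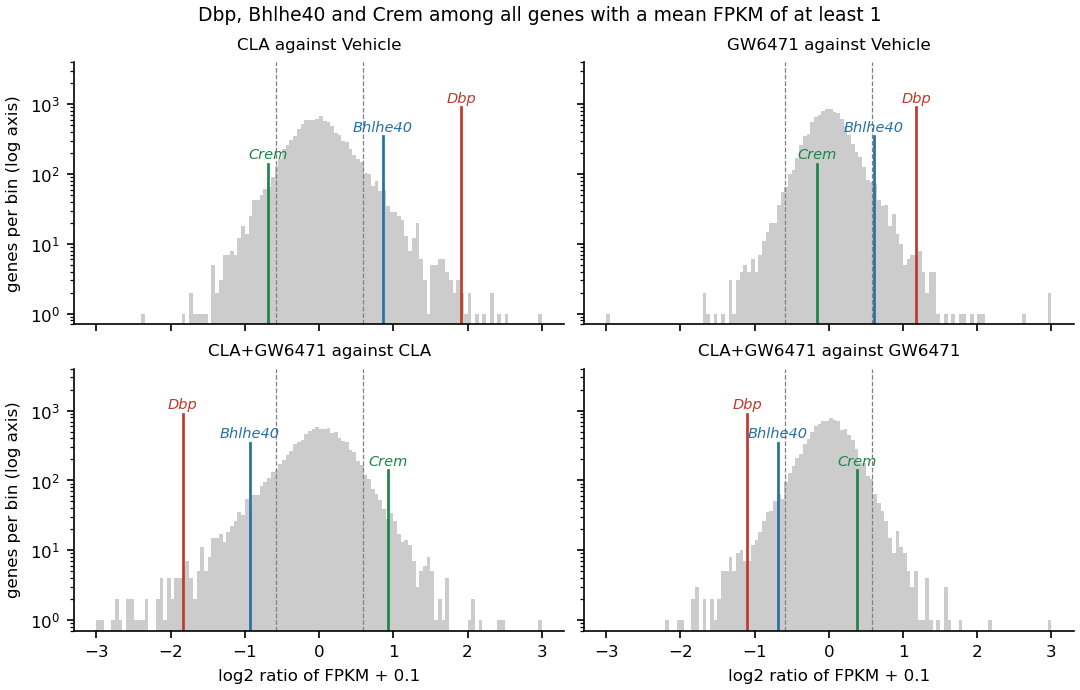
Number of genes (log axis) by log2 ratio of FPKM + 0.1 in each comparison, over the 10355 genes averaging 1 FPKM or more (ratios past 3 drawn at 3), with Dbp, Bhlhe40 and Crem as vertical lines and 1.5-fold as dashed lines. Dbp lies in the upper tail in CLA and GW6471 against Vehicle and in the lower tail in both comparisons of CLA+GW6471.

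The design also asks whether the diet acted alike without and with the antagonist, and these ratios share no library. The diet ratio was positive without GW6471 and negative with it for Dbp (1.91 and -1.10) and for Bhlhe40 (0.86 and -0.69). Crem had the opposite signs (-0.69 and 0.38). The difference between the log2 diet ratios was 3.01 for Dbp, 1.54 for Bhlhe40 and -1.08 for Crem. For Tef it was 0.31, for Nfil3 0.08 and for Creb1 -0.33. Such reversals were common in these libraries. Of 9762 genes averaging 1 FPKM or more with a known length, 20% were higher and then lower, both beyond counting error, as Dbp and Bhlhe40 were, and another 20% were lower and then higher, as Crem was. The reversal itself therefore sets no factor apart. The median size of the difference was 0.37 over all 10355 genes, and 0.24% of genes had one as far above 0 as Dbp, 2.49% as Bhlhe40, and 3.90% one as far below 0 as Crem. With a pseudocount of 1, chosen for this value after the data were seen, the difference was 1.90 for Dbp, with 0.67% of genes as far, 1.52 for Bhlhe40 (1.59%) and -0.91 for Crem (4.49%). None of these differences was tested, since each rests on 4 single libraries.

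The profiles of the 6 factors over the 4 libraries were compared by the root mean square difference of their log2 levels, each centred on its own mean. Nfil3 and Creb1 were the closest factors (0.12), followed by Tef and Nfil3 (0.17) and by Crem and Creb1 (0.20). Dbp was nearest to Bhlhe40 (0.41) and farthest from Crem (1.12). The same measure was taken against 8166 genes averaging 5 FPKM or more, as a description over 4 libraries. The nearest to Dbp was Bnip3 (0.11), which encodes a mitophagy receptor of the BCL2 family. Bnip3 had 19.65 FPKM in Vehicle, 79.94 in CLA, 46.56 under GW6471 and 18.42 under CLA+GW6471. Next came Dhcr7 (0.12), the last enzyme of cholesterol synthesis, and Arrdc3 (0.13), an α-arrestin. Nearest to Bhlhe40 were Nadkd1 (0.014), the mitochondrial NAD kinase, the organic anion transporter Abcc3 (0.016) and Sil1 (0.021), a cochaperone of the endoplasmic reticulum. Nearest to Crem were Rhbdd1 (0.020), a rhomboid protease, the thiamine transporter Slc19a2 (0.035) and the histone gene Hist2h2aa1 (0.036), whose reads are uncertain because near-identical copies exist. Nearest to Creb1 were Tbpl1 (0.011), Ifrd1 (0.014) and the interleukin-6 signal transducer Il6st (0.016). H2-D1 (0.004), whose reads are uncertain among near-identical class I genes, Pold2 (0.006) and Hsd17b4 (0.007) lay nearest to Tef, and Bbx (0.013), Dcun1d3 (0.015) and Wasf2 (0.015) nearest to Nfil3. Many genes lie close to a profile that varies little, so the small values for Tef and Nfil3 set no gene apart.

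Genes known to carry D-boxes or to depend on PAR-bZIP factors in liver were mostly low or absent from the table used here. Of 15 such genes 9 were listed, and 6 of these had a mean FPKM under 1. Cyp7a1, the rate-limiting enzyme of bile acid synthesis, was at most 0.02 FPKM, and Nr1i3, the xenobiotic receptor CAR, lay between 0.79 and 0.87. The other 3 could be compared. Aldh1a1, a retinaldehyde dehydrogenase, had 209.66 FPKM in Vehicle, 443.17 in CLA, 390.33 under GW6471 and 231.94 under CLA+GW6471, so that its high libraries were those of Dbp. Its log2 ratio was 1.08 for CLA against Vehicle and -0.75 for CLA+GW6471 against GW6471. Por, the electron donor of cytochromes P450, had 72.40, 98.38, 87.99 and 80.87 FPKM in Vehicle, CLA, GW6471 and CLA+GW6471, with a log2 ratio of CLA to Vehicle of 0.44. Alas1, the first enzyme of heme synthesis, had 13.45, 17.92, 14.54 and 15.14 FPKM in the same order. Of these 3 genes, 1 was past 1.5-fold in each comparison, and it was Aldh1a1, higher in CLA and GW6471 than in Vehicle (7.33% and 3.29% of all genes) and lower in CLA+GW6471 than in CLA and GW6471 (9.16% and 3.88%).

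Bhlhe40 is a known target of hypoxia-inducible factors, and Bnip3, the gene nearest to Dbp, is another. Of 12 hypoxia targets, 10 averaged 1 FPKM or more. In CLA against Vehicle 4 of them were at least 1.5-fold higher and 0 lower, with a median log2 ratio of 0.49. Over all genes 7.33% were as much higher and 4.95% as much lower, and the median was -0.007. The same numbers, 4 higher and 0 lower, held for GW6471 against Vehicle, with a median of 0.28, where 3.29% of all genes were higher and 2.1% lower. In CLA+GW6471 against CLA and against GW6471, 4 were lower and 0 higher, with medians of -0.56 and -0.39, where 9.16% and 3.88% of all genes were lower. The largest ratios were those of Bnip3, Ankrd37, Egln3, an oxygen sensor, and Pdk1, which restrains pyruvate oxidation. Ankrd37 had 1.25 FPKM in Vehicle, 4.69 in CLA, 3.17 under GW6471 and 0.84 under CLA+GW6471. Egln3 had 11.18, 27.96, 19.48 and 11.92 FPKM in the same order. Vegfa, at 56.57, 60.59, 68.33 and 52.60 FPKM, and Slc2a1, at 55.19, 64.75, 59.88 and 52.51, stayed within 1.5-fold in every comparison. Ndrg1 went the other way, with a log2 ratio of CLA to Vehicle of -0.47. Oxygen supply was not measured, and its part in the levels of Bhlhe40 and Dbp was not tested.

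The core loop that drives the output factors did not follow Dbp as a group. Of 13 genes 9 could be compared, and in CLA against Vehicle 0 were at least 1.5-fold higher and 3 were lower, namely Cry1, Arntl and Clock, beside 7.33% and 4.95% of all genes. The median log2 ratio of the 9 genes was -0.35. In CLA+GW6471 against CLA 4 were higher and 1 lower, beside 6.84% and 9.16% of all genes, and the median was 0.42. Of the E-box genes in this list, Nr1d2 had 9.78 FPKM in Vehicle, 12.62 in CLA, 13.77 under GW6471 and 9.94 under CLA+GW6471, with high libraries as for Dbp. Cry2 had 4.90, 5.63, 6.34 and 4.77 FPKM in the same order. Others did not share these libraries: Nr1d1 had 17.97, 22.83, 22.71 and 23.29 FPKM, and Per1, lowest in CLA, had 14.13, 9.91, 14.61 and 15.14. Against GW6471, CLA+GW6471 had lower Nr1d2 and Cry2, with log2 ratios of -0.47 and -0.40, and higher Cry1, at 0.95. Cry1, Arntl, Clock, Per1 and Nr1d1 are also among the genes the study singled out, so their direction in CLA against Vehicle is not independent evidence. Per1 is counted among the CREB targets below as well.

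For the CREB side, the partners and targets of Creb1 were counted. All 11 partners (Atf1, coactivators and protein kinase A subunits) could be compared, and in CLA against Vehicle 1 was at least 1.5-fold higher and 0 were lower, with a median log2 ratio of 0.007. With 7.33% of all genes as much higher, 1 of 11 is near the background. The partner that was higher was Prkar2b, a regulatory subunit of protein kinase A, at 1.26 FPKM in Vehicle, 2.43 in CLA, 1.87 under GW6471 and 0.74 under CLA+GW6471. The coactivator Crebbp had 6.05, 4.26, 6.52 and 6.97 FPKM in the same order, and was lowest in CLA like Creb1 and Crem. Of 13 CREB target genes 9 could be compared, and 2 were lower and 0 higher in CLA than in Vehicle, with a median log2 ratio of -0.29, or -0.18 with a pseudocount of 1, beside 4.95% of all genes lower and 7.33% higher. They were the phosphatase gene Dusp1, with 70.42 FPKM in Vehicle, 39.57 in CLA, 72.58 under GW6471 and 90.62 under CLA+GW6471, and the orphan receptor gene Nr4a2, with 7.89, 4.81, 6.50 and 7.60 FPKM. Both were lowest in CLA, whereas Fos, at 5.88, 8.32, 10.49 and 6.41 FPKM, was highest in GW6471 and next highest in CLA. In GW6471 against Vehicle Fos was the only compared target past 1.5-fold, higher as were 3.29% of all genes. In CLA+GW6471 against GW6471 it was again the only one, lower as were 3.88%. In CLA+GW6471 against CLA 3 targets were higher and 0 lower, beside 6.84% and 9.16% of all genes. The gluconeogenic targets Pck1 and G6pc were searched for by symbol and were not listed.

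Relatives of the factors were counted beside them. Among the 5 measured C/EBP-type bZIP factors, 1 was lower and 0 higher in CLA than in Vehicle, beside 4.95% and 7.33% of all genes. It was Ddit3, the stress factor CHOP, with 318.78 FPKM in Vehicle, 195.69 in CLA, 265.73 under GW6471 and 331.54 under CLA+GW6471, an order like that of Crem. Cebpa and Cebpb stayed within 1.5-fold in every comparison. Of the HES and HEY repressors related to the DEC proteins, Hes1 and Hes6 could be compared, and neither reached 1.5-fold. Hes1 lay between 46.7 and 52.5 FPKM in the 4 libraries.

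**Figure D5:**
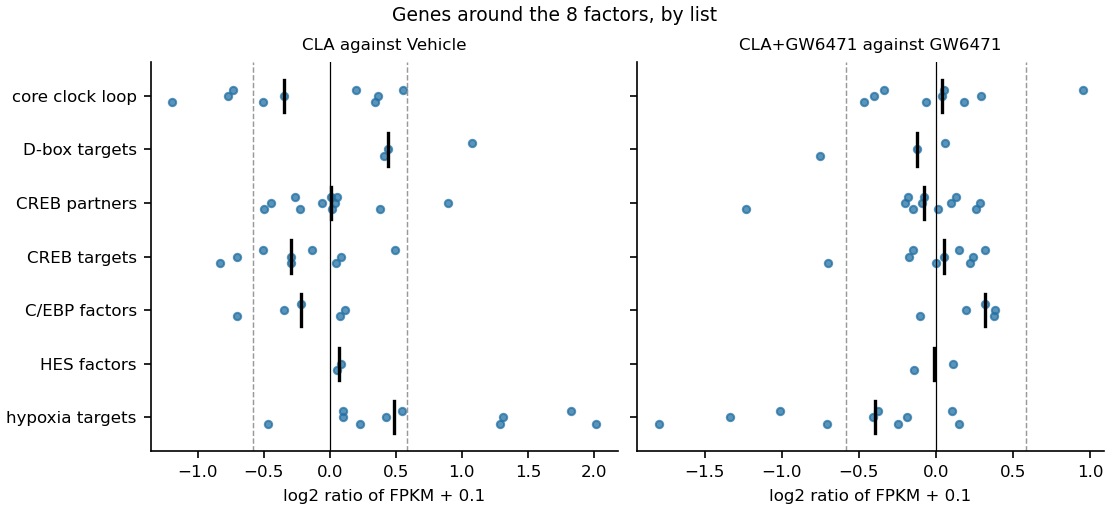
Log2 ratio of FPKM + 0.1 for the genes of 7 lists averaging 1 FPKM or more (points, 1 per gene) and the median of each list (black bar), in CLA against Vehicle and CLA+GW6471 against GW6471, with dashed lines at 1.5-fold. In CLA against Vehicle 4 hypoxia targets lie past 1.5-fold above 0 and 3 core clock genes below it.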

How the data were processed

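RNA labelled as liver from 4 groups was sequenced (TruSeq, HiSeq 2000), and the authors used BWA and Bowtie with the mm9 assembly, then Cufflinks. The sources used here give no versions. The authors deposited FPKM with 2 decimals for 15500 genes; the sources used here do not state what filter made this list. The unit was read from the study's supplement, as the table names none. Columns were matched to samples by treatment label.

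No count model was fitted. Ratios were log2 of FPKM + 0.1, and calls used 1.5-fold with a mean FPKM of at least 1. Depth was estimated at 18760000 (Vehicle), 18780000 (CLA), 19100000 (GW6471) and 19260000 (CLA+GW6471) reads, from the step between low FPKM of 499 short genes with 1 transcript (GENCODE vM1). Estimated reads gave 95% exact Clopper-Pearson intervals of ratios, taken without a pseudocount, and Poisson intervals of levels. They cover counting error only, and steps were tested on simulated data. Scripts ran in Python 3.11.15 with scipy 1.17.1, numpy 2.4.6, matplotlib 3.10.9 and pandas 2.3.3.

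The 8 factors and the lists were chosen with earlier results of these data known. Named genes were the factors, the 3 genes per list with the largest ratios, and the 3 nearest profiles per factor. Other list genes (Nr1i3, Cyp7a1, Vegfa, Slc2a1, Ndrg1, Nr1d1, Ppara and the markers outside this rule) were named after their values were seen. Alternatives were pseudocounts of 0.01 and 1, scaling by the FPKM sum or by the median ratio, a limit of 5 or none on mean FPKM, and 2-fold. A planned comparison of protein sequences was not made, and proteins are not analysed here.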

Additional observations from a re-analysis of the deposited data

Results flagged for a closer look

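For 3 of the 8 factors the CLA diet went with opposite differences without and with GW6471, both beyond counting error. Dbp had a log2 ratio of 1.91 for CLA to Vehicle and of -1.10 for CLA+GW6471 to GW6471. The values for Bhlhe40 were 0.86 and -0.69, and those for Crem were -0.69 and 0.38. Reversals of either kind were common, at 20% of 9762 genes each, so the sign change alone sets no factor apart. With 1 library per group, the difference between the diet ratios was not tested.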

How the results depend on the processing

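No paired analysis was possible because each group has 1 library. Of 28 counts of factors past the threshold under an alternative, 22 stayed within 1.5 times the count above. With a threshold of 2-fold the count was 1 in each of the 4 comparisons, and it was Dbp each time. With a limit of 5 on mean FPKM, which removes Dbp, it was 1 for GW6471 against Vehicle and 1 for CLA+GW6471 against GW6471, and it was Bhlhe40. With a pseudocount of 1, Crem dropped below 1.5-fold in CLA against Vehicle, at -0.58 (log2). Of 128 log2 ratios of factors, 125 stayed within their counting interval, which was taken without a pseudocount. The exceptions were Dbp with a pseudocount of 1, at 1.24 for CLA to Vehicle and -1.20 for CLA+GW6471 to CLA, and Bhlhe40 with libraries scaled to a common sum, at -0.75 for CLA+GW6471 to GW6471. The sign of the ratios of Dbp, Bhlhe40 and Crem held under each pseudocount and scaling, with Dbp between 1.24 and 2.03 for CLA to Vehicle. Of 192 list medians 190 moved by less than 0.1 (log2). The exceptions, with a pseudocount of 1, were the CREB targets in CLA against Vehicle, at -0.18, and the core loop in CLA+GW6471 against CLA, at 0.30. Scaling moved the median of all genes by less than 0.1 (log2). Shares of all genes past 1.5-fold moved by over 1.5 times in 13 of 32 cases. With a pseudocount of 1 they were 3.22% lower in CLA against Vehicle, 1.94% higher and 1.02% lower in GW6471 against Vehicle, and 1.68% and 2.45% in CLA+GW6471 against GW6471. With no limit on mean FPKM the latter pairs were 5.57% and 5.17%, and 5.80% and 6.06%. With a limit of 5 they were 2.09% and 1.18%, and 1.87% and 2.50%. Depth limits Hlf and Bhlhe41, at 8 estimated reads or fewer, and Dbp, at 26 in Vehicle.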
